A study of Homo sapiens with 12 samples.

Results

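Glycolysis and the cellular response to low oxygen were read from 39 genes, 23 for glucose uptake, glycolysis and lactate export and 16 for hypoxia-inducible factor (HIF) signalling and its targets. They were picked by gene symbol from the deposited count table, which holds 26535 features, 19974 of them with an Ensembl gene ID. Each of the 39 symbols was found once, and all 39 were among the 18228 features that passed the filter on low counts.

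Glycolysis splits glucose into pyruvate and yields ATP without oxygen. Glucose enters through the SLC2A transporters, hexokinase and phosphofructokinase commit it to the pathway, and lactate dehydrogenase turns pyruvate into lactate, which leaves through the SLC16A transporters. HIF is a transcription factor whose alpha subunit, HIF1A or EPAS1 (HIF-2 alpha), is marked for degradation by the EGLN prolyl hydroxylases when oxygen is present. In low oxygen the subunit accumulates and switches on glycolytic genes together with genes for angiogenesis, pH control, mitophagy and collagen processing. This control acts on the HIF alpha protein, so its mRNA level alone does not report its activity.

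The series measured messenger RNA in 4 groups of 3 libraries: H1299 with VGF (genotype label VGF-OE), H1299 with empty vector (genotype label WT), A549 with VGF and A549 with empty vector. A549 and H1299 are established human non-small-cell lung cancer lines, and VGF, a secreted neuroendocrine precursor protein, or the empty control was delivered by lentivirus to cells of either line. H1299 cells were grown in RPMI-1640 and A549 cells in DMEM/F12, both with 10% fetal bovine serum, so line and medium cannot be told apart. The treatment notes of all 12 libraries name the empty vector alone and were not used for grouping, and the submitters call the 3 replicates of a group biologically independent.

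VGF itself was at 980.4 ± 119 CPM (counts scaled to library size) in H1299 with VGF, against 85.6 ± 7.26 CPM in H1299 with empty vector (SD, n = 3 each). In A549 it was at 1283 ± 80.1 CPM with VGF, against 2.43 ± 0.373 CPM with empty vector. Library totals ran from 31378171 to 41919484 counts. CDKN2A, CDKN2B and MTAP, which lie in a region that A549 cells lack, summed to 350 to 393 CPM in the 6 H1299 libraries and to 9.37 to 15.4 CPM in the 6 A549 libraries. A summed list of 6 epithelial markers was at 1010 to 1170 CPM in H1299 and 6720 to 8820 CPM in A549, and of these CDH1 had 0 counts in all 6 H1299 libraries. None of the 4 mesenchymal markers was at 0 in any group, and the alveolar type II, fibroblast, blood cell and neuroendocrine lists each summed to at most 29.7 CPM in any library. The 10 endothelial markers summed to 440 CPM in A549 VGF library 2, against 86.3 and 93.1 CPM in the other A549 VGF libraries. These are whole-culture samples, in which fewer expressing cells and less RNA per cell cannot be told apart.

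The first comparison set H1299 against A549, with empty vector. Most of the 16 chosen hypoxia response genes were lower in H1299: 14 were called lower and VEGFA was the 1 called higher. Of all tested features, 38.6% were called lower and 38.5% higher. The 16 were chosen with earlier results of these data known. A wider list of 49 other hypoxia-inducible genes was nearer to all features, with 46.9% called lower and 38.8% higher. The 23 glycolysis genes were split, with 7 called higher and 15 called lower in H1299, and in 4 steps (SLC2A3 and SLC2A1, HK2 and HK1, PFKM and PFKP, LDHB and LDHA) 1 paralog was higher and another lower. HK2, SLC16A3 and SLC2A3 were the members at least 2-fold higher in H1299, and CA9, CA12, NDRG1, EGLN3 and EPAS1 were the furthest below A549. A call needed an adjusted p under 0.05 in the quasi-likelihood F test of edgeR, adjusted over all 18228 features by the Benjamini-Hochberg method, and every adjusted p below is from this test unless another is named.

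The counts are read against a background in which the lines differed broadly. Of the 39 members, 8 were called higher and 29 called lower in H1299, while 38.5% of all tested features were called higher and 38.6% called lower. At a difference of at least 2-fold, 3 members were higher and 19 lower, against 21.0% and 23.6% of all features. The median log2 fold change was -0.98 over the 39 members, -0.49 over the 23 glycolysis genes and -2.38 over the 16 hypoxia response genes, against 0.01 over all features. PFKL and KDM3A were not called. The H1299 and A549 libraries did not overlap for the other 37 members, against 81.0% of all features.

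**Figure D1:**
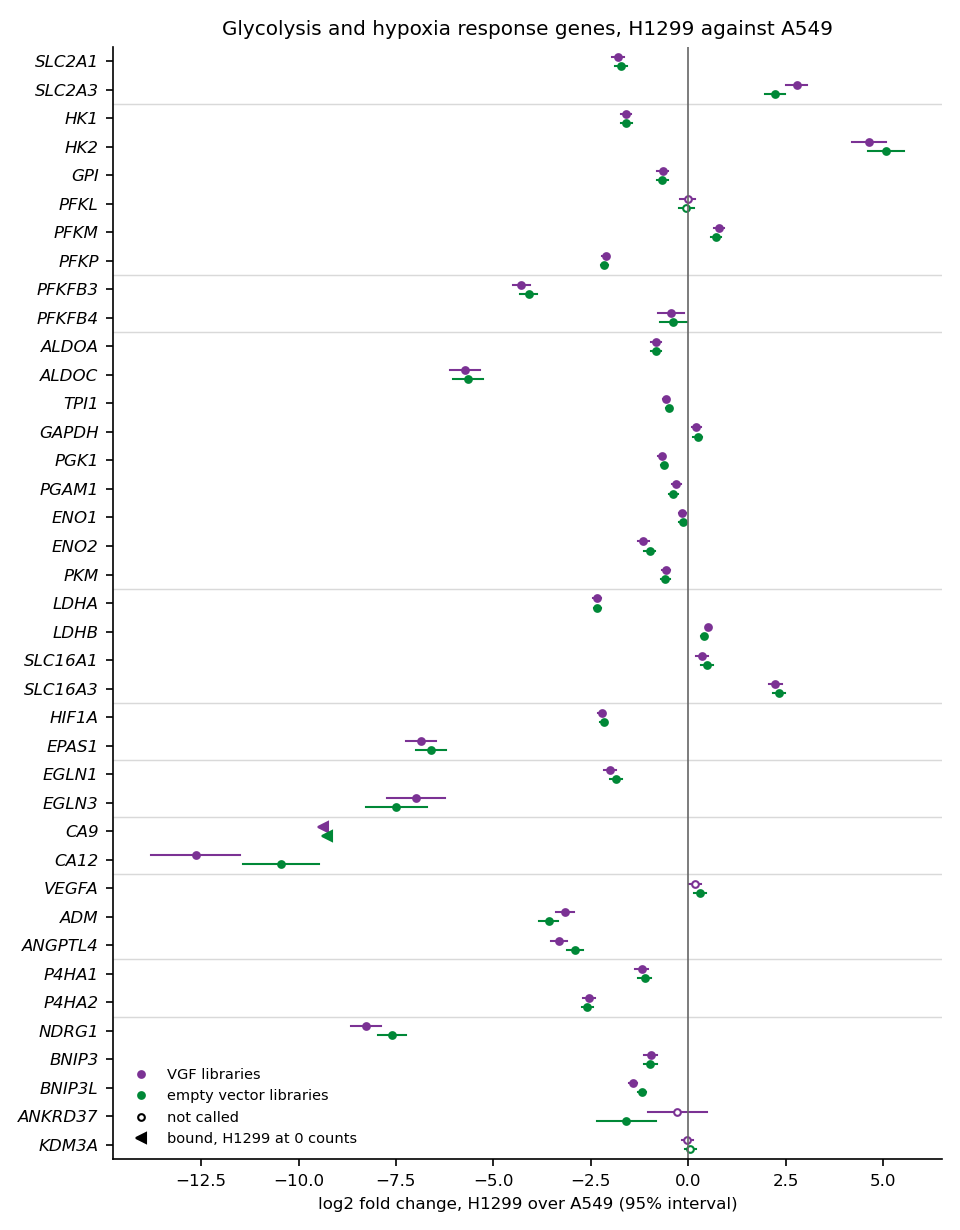
Log2 fold change of H1299 over A549 (horizontal axis) for the 39 genes, ordered by role with grey lines between roles, in VGF libraries (purple, upper mark) and empty vector libraries (green, lower mark). Points are estimates with 95% intervals, open points were not called, and the triangles of CA9 are bounds because it had 0 counts in H1299. HK2, SLC16A3 and SLC2A3 lie to the right, and most hypoxia response genes lie to the left.

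Both HIF alpha subunits were lower in H1299. HIF1A (chromosome 14, 61695513 to 61748259, plus strand; coordinates are of GRCh38 in GENCODE release 29) had 187.1, 180.3 and 187.4 CPM in the H1299 libraries, against 843.1, 811.1 and 835.6 CPM in the A549 libraries. EPAS1 (chromosome 2, 46293667 to 46386703, plus strand) had 3.59, 6.01 and 4.50 CPM in H1299, against 448.4, 418.2 and 500.2 CPM in A549. Neither gene had overlapping groups. The log2 fold change was -2.17 ± 0.039 (SE) for HIF1A, with an adjusted p of 9.66e-14, and -6.60 ± 0.175 for EPAS1, with an adjusted p of 2.04e-12. In FPKM, fragments scaled to gene length and library size, a scale on which levels of different genes can be compared, EPAS1 made up 1.90 ± 0.513% of the summed HIF1A and EPAS1 level in H1299 and 29.3 ± 1.65% in A549 (SD, n = 3 each). The level of HIF1A was above that of EPAS1 in both lines.

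The prolyl hydroxylases that mark HIF alpha were lower as well. EGLN1 (PHD2), the main oxygen sensor of most cells, had 36.8, 37.5 and 37.4 CPM in H1299, against 129.8, 126.7 and 149.0 CPM in A549, a log2 fold change of -1.86 ± 0.071. EGLN3 (PHD3), which HIF itself induces, had 9, 6 and 0 counts in the H1299 libraries, against 751, 732 and 664 counts in the A549 libraries. It lay at chromosome 14, 33924231 to 34462774 on the minus strand, was a mean of 0.112 CPM in H1299 and had a log2 fold change of -7.49 ± 0.357. With so few reads in H1299 the size moved when a library was left out, to -8.17 without H1299 empty vector library 1, and every such value was called. EGLN2, outside the chosen genes, was higher in H1299 by 1.10 ± 0.056 on the log2 scale (164.0 and 76.4 CPM in H1299 and A549).

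Among the genes that HIF is known to induce, those for pH control differed most. CA9 (chromosome 9, 35673856 to 35681159, plus strand), a membrane carbonic anhydrase widely used as a hypoxia marker, had 0 counts in all 3 H1299 libraries, against 438, 441 and 551 counts in the A549 libraries. Set against a floor of 3 counts over the H1299 group, its level was at least 614-fold lower in H1299. The annotation has 38.5% of its exonic bases shared with ARHGEF39 on the opposite strand, and whether strand was used in counting is not given in the sources used here. CA12 (chromosome 15, 63321378 to 63382161, minus strand), a related membrane carbonic anhydrase, had 17, 141 and 6 counts in the H1299 libraries, against 58193, 57753 and 62624 counts in A549. Its log2 fold change was -10.45 ± 0.449, and it was -12.7 without H1299 empty vector library 2, the library with 141 counts. That library was also the highest of its group for NDRG1 and EPAS1, at 1.95 and 6.01 CPM. It was not the highest for EGLN3, ALDOC, ADM and PFKFB3, which were highest in empty vector library 1, and CA9 was at 0 in each. The cause was not tested. CDH1 had 0 counts in H1299 empty vector library 2, as in the other H1299 libraries, and 2653 to 3020 counts in A549 with empty vector. What this means for the cause was not tested.

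NDRG1 (chromosome 8, 133237171 to 133302022, minus strand), a gene induced by stress and low oxygen, had 0.780, 1.95 and 1.24 CPM in H1299, against 253.5, 265.3 and 258.2 CPM in A549. The log2 fold change was -7.61 ± 0.165, with an adjusted p of 3.79e-13. The mitophagy receptors BNIP3 and BNIP3L were closer between the lines, at 49.1 ± 5.37 and 60.6 ± 1.65 CPM in H1299, against 96.7 ± 2.12 and 137.3 ± 4.18 CPM in A549. BNIP3 has 39 named pseudogenes in the annotation, and how reads were split among copies is not given. ANKRD37, an ankyrin repeat gene of low abundance, had 0.780, 0.545 and 0.462 CPM in H1299 and 1.40, 1.73 and 2.26 CPM in A549, and it shares 35.2% of its exonic bases with UFSP2 on the opposite strand. KDM3A, a histone H3 lysine 9 demethylase, was at 77.0 CPM in H1299 and 73.9 CPM in A549 and was not called. Its log2 fold change of 0.06 became a call of 0.17 (adjusted p = 0.0437) with upper-quartile scaling.

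The secreted targets did not move alike. ADM, the vasodilator adrenomedullin, had 6.71, 5.31 and 4.86 CPM in H1299, against 63.2, 68.2 and 70.6 CPM in A549, a log2 fold change of -3.58 ± 0.112. ANGPTL4, an inhibitor of lipoprotein lipase, was at 10.5, 11.6 and 10.1 CPM in H1299, against 75.1, 85.9 and 81.4 CPM in A549, a log2 fold change of -2.91 ± 0.092. VEGFA, the main angiogenic growth factor, was at 50.8, 57.9 and 52.9 CPM in H1299, against 46.6, 43.0 and 41.9 CPM in A549. ADM and ANGPTL4 were thus far lower in H1299, while VEGFA was higher by 0.30 ± 0.072 on the log2 scale, with an adjusted p of 0.002. The collagen prolyl hydroxylase subunits P4HA1 and P4HA2, which modify proline residues of collagen chains, were lower in H1299 by log2 fold changes of -1.12 ± 0.073 and -2.59 ± 0.068.

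**Figure D2:**
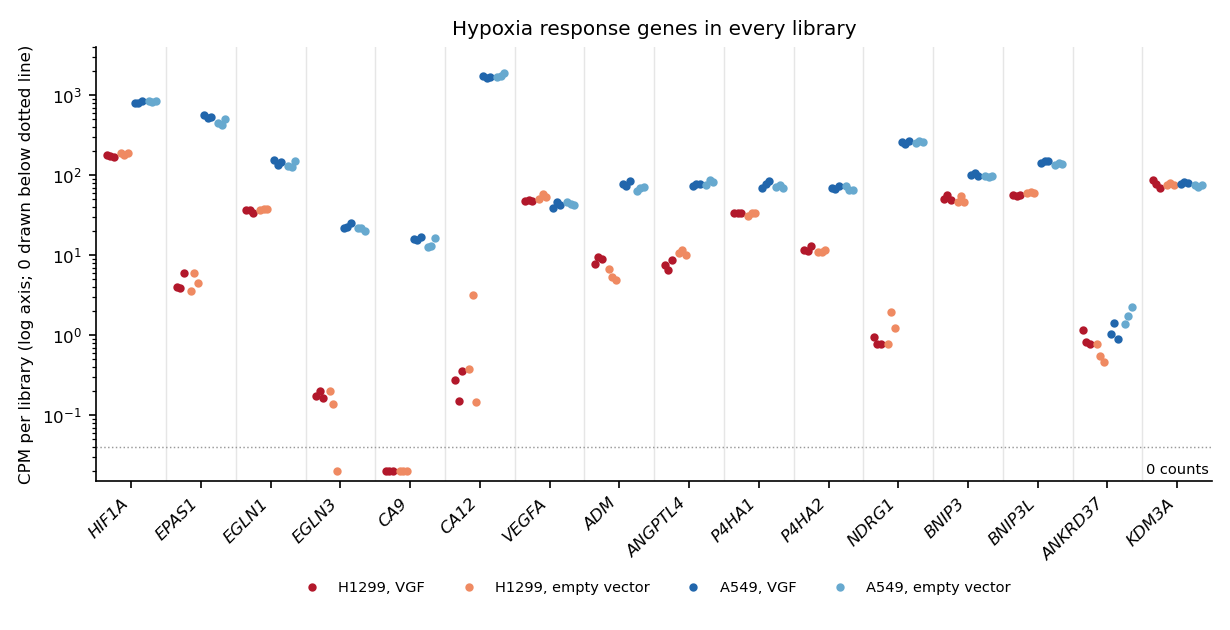
CPM of the 16 hypoxia response genes in each of the 12 libraries on a log axis, with 1 point per library, H1299 in reds and A549 in blues, and VGF in the darker shade. Points below the dotted line are 0 counts, as for CA9 in all 6 H1299 libraries. KDM3A is at like levels in both lines and VEGFA is slightly higher in H1299 with empty vector, while CA12, NDRG1, EGLN3 and EPAS1 lie far lower in H1299.

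The summed FPKM of the glycolytic enzymes was close in both lines, but most single genes were not level, as was so for most tested features. GAPDH, the most abundant gene of the sum, was higher in H1299. Of the 23 glycolysis genes, 15 were called lower there (65.2%) and 7 higher (30.4%), against 38.6% and 38.5% of all features. Their median log2 fold change was -0.49. Shares of all FPKM also leave out the TMM scaling factors of the tests, which were 1.06 to 1.09 in H1299 and 0.919 to 0.94 in A549. On the FPKM scale the 19 glycolytic enzymes and regulators summed to 2.24 ± 0.0918% of all FPKM in H1299 and 2.30 ± 0.0547% in A549, and the single libraries of the lines overlapped. The 16 hypoxia response genes summed to 0.0352 ± 0.000337% in H1299 and 0.190 ± 0.00933% in A549, without overlap. GAPDH and ENO1 had the highest FPKM levels of the 39 genes in both lines, at 3996 and 1548 FPKM in H1299 and 2899 and 1493 FPKM in A549. GAPDH has 62 named pseudogenes in the annotation, so reads of near-identical copies may add to its count.

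For glucose uptake, the widely expressed transporter SLC2A1 (GLUT1) was lower in H1299 and the high-affinity transporter SLC2A3 (GLUT3) was higher. SLC2A3 (chromosome 12, 7919230 to 7936275, minus strand) had 70.3, 70.3 and 69.8 CPM in H1299, against 14.0, 12.2 and 18.6 CPM in A549. SLC2A1 had 65.8, 72.9 and 62.5 CPM in H1299, against 229.9, 228.3 and 209.1 CPM in A549. The log2 fold changes were 2.23 ± 0.115 for SLC2A3 and -1.73 ± 0.0703 for SLC2A1. SLC2A3 made up 49.6 ± 2.00% of the summed FPKM of the pair in H1299 and 5.94 ± 1.56% in A549.

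The hexokinases, which phosphorylate glucose on entry, were divided in the same way. HK2 (chromosome 2, 74833981 to 74893359, plus strand), the inducible form, had 74.2, 84.6 and 72.4 CPM in H1299, against 2.18, 2.57 and 2.05 CPM in A549. HK1, the housekeeping form, had 67.2, 69.6 and 60.8 CPM in H1299, against 199.6, 209.5 and 183.3 CPM in A549. HK2 was higher in H1299 by 5.09 ± 0.212 on the log2 scale (adjusted p = 1.44e-10), and its share of the HK1 and HK2 sum was 42.3 ± 1.25% in H1299 and 0.707 ± 0.0436% in A549. HKDC1, a hexokinase outside the chosen genes, was lower in H1299 by a log2 fold change of -7.03 ± 0.426.

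Of the phosphofructokinase subunits, which catalyse the committed step, the platelet form PFKP was lower in H1299 and the muscle form PFKM higher. PFKP had 173.6, 181.6 and 174.7 CPM in H1299, against 785.6, 812.5 and 768.5 CPM in A549, and a log2 fold change of -2.16 ± 0.042. PFKM was at 112.9, 118.1 and 108.3 CPM in H1299, against 69.6, 71.5 and 64.8 CPM in A549, a log2 fold change of 0.72 ± 0.060. The liver form PFKL was at 118.0 CPM in H1299 and 122.1 CPM in A549, with an interval of the log2 fold change from -0.25 to 0.15, and its sign turned to 0.06 with upper-quartile scaling. PFKP was 46.7 ± 1.21% of the summed FPKM of the subunits in H1299 and 82.8 ± 0.569% in A549.

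PFKFB3 (chromosome 10, 6144934 to 6254644, plus strand), which makes fructose 2,6-bisphosphate, the strongest activator of phosphofructokinase, had 20.4, 19.3 and 18.5 CPM in H1299, against 351.0, 358.3 and 285.9 CPM in A549. Its log2 fold change of -4.09 ± 0.099 was larger than that of its relative PFKFB4, which was -0.38 ± 0.157 (adjusted p = 0.0407). PFKFB4 had 8.58, 9.01 and 7.15 CPM in H1299, against 10.1, 11.1 and 11.1 CPM in A549. Its call was not made with upper-quartile scaling (adjusted p = 0.122), without the filter on low counts (0.0633) or on FPKM values with a pseudocount of 1 (0.209). GPI, which converts glucose 6-phosphate to fructose 6-phosphate, was lower in H1299 by a log2 fold change of -0.67 ± 0.065.

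Further down the pathway, 8 of the 9 aldolase and lower glycolysis genes were called lower in H1299, against 38.6% of all features. Most of these differences were less than 2-fold: at 2-fold or more 1 of the 9 was lower (11.1%), against 23.6% of all features. ALDOC (chromosome 17, 28573115 to 28577264, minus strand), the brain form of aldolase, was the exception in size, with 0.713, 0.476 and 0.486 CPM in H1299, against 28.97, 27.9 and 28.1 CPM in A549. The main form ALDOA had 688.4, 738.0 and 653.2 CPM in H1299, against 1215, 1289 and 1179 CPM in A549. The log2 fold change was -5.65 ± 0.174 for ALDOC and -0.82 ± 0.055 for ALDOA. ALDOA shares 42.3% of its exonic bases with another annotated gene on the same strand, so its reads may be split between the annotations. The other lower genes, TPI1, PGK1, PGAM1, ENO1, ENO2 and PKM, had log2 fold changes between -0.98 and -0.14. GAPDH was higher in H1299, at 0.24 ± 0.057 (adjusted p = 0.00188).

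Differences this small depend on the scaling between the lines. With upper-quartile scaling the median of all features moved by 0.106 on the log2 scale, and ENO1 was then at -0.03 with an adjusted p of 0.455. On FPKM values with a pseudocount of 1 that median moved by 0.114, and ENO1 turned to 0.05 with an adjusted p of 0.347. The signs of the other called members were as above under both.

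At the end of the pathway the lactate dehydrogenase subunits differed in opposite directions. LDHA (chromosome 11, 18394388 to 18408425, plus strand), the subunit that favours making lactate, had 517.2, 534.0 and 477.4 CPM in H1299, against 2502, 2531 and 2643 CPM in A549. LDHB, the subunit that favours using it, had 1315, 1311 and 1254 CPM in H1299, against 961.9, 993.3 and 972.8 CPM in A549. The log2 fold change was -2.33 ± 0.047 for LDHA and 0.41 ± 0.033 for LDHB, and LDHB made up 79.8 ± 0.77% of the summed FPKM in H1299 and 34.8 ± 0.558% in A549. LDHB shares 33.4% of its exonic bases with another annotated gene on the same strand.

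Both lactate transporters were higher in H1299. SLC16A3 (MCT4; chromosome 17, 82228397 to 82261129, plus strand), known for lactate export from glycolytic cells, had 229.5, 241.2 and 208.5 CPM in H1299, against 47.1, 41.8 and 45.7 CPM in A549. SLC16A1 (MCT1) had 87.95, 92.4 and 90.6 CPM in H1299, against 65.2, 65.3 and 63.9 CPM in A549. The log2 fold change was 2.34 ± 0.073 for SLC16A3, with an adjusted p of 8.55e-12, and 0.48 ± 0.073 for SLC16A1. BSG, the chaperone that brings these transporters to the membrane, and EMB, its relative, were also higher in H1299, by 0.63 ± 0.050 and 3.26 ± 0.092 on the log2 scale.

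**Figure D3:**
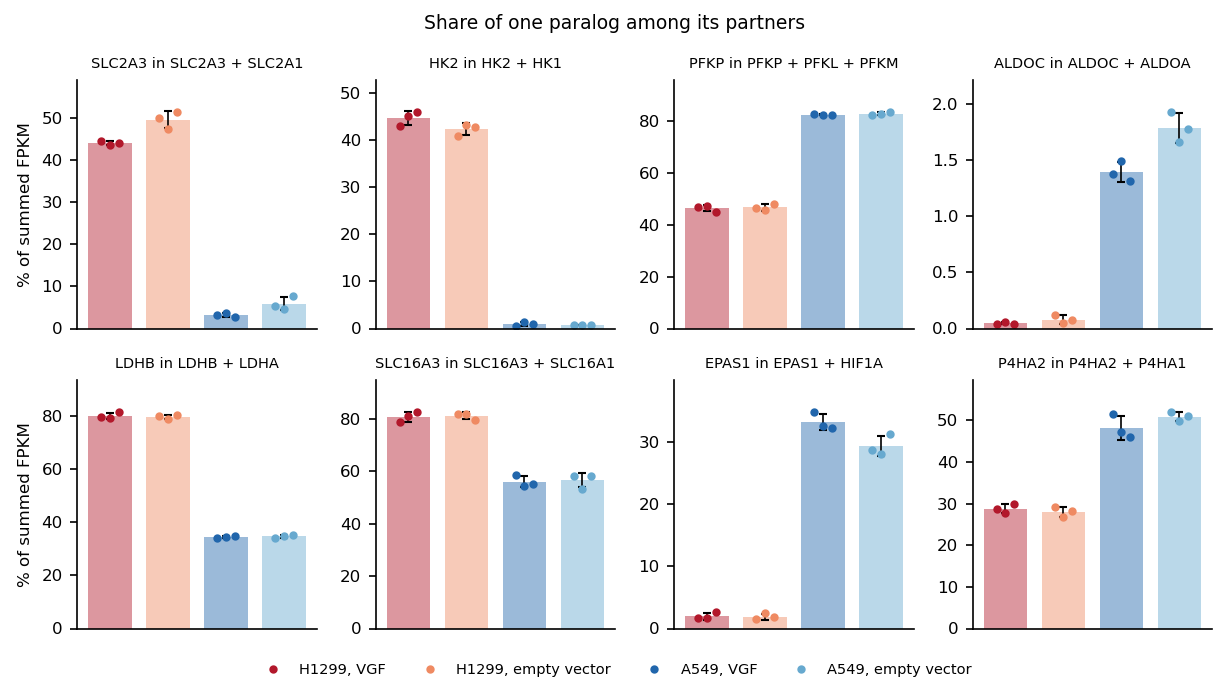
Share of 1 gene in the summed FPKM of its paralogs (vertical axis, %), in each group of 3 libraries. Bars are means, error bars are SD and points are libraries, with H1299 in reds and A549 in blues. SLC2A3, HK2, LDHB and SLC16A3 hold larger shares in H1299, and PFKP, ALDOC, EPAS1 and P4HA2 hold larger shares in A549.

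The line comparison was repeated in the VGF libraries, which are other libraries of the same lines. There 7 members were called higher and 28 lower, against 38.2% and 39.1% of all features. At 2-fold or more 3 members were higher and 19 lower, against 20.7% and 24.2% of all features. The 3 higher members were the same genes in both comparisons, and 18 of the 19 lower ones were shared, which is 94.7% of either list. For all features the shared part of the empty vector lists was 87.2% of the higher and 91.7% of the lower calls. ANKRD37 was lower by at least 2-fold with empty vector only, and with VGF its log2 fold change was -0.28 ± 0.347 and not called. ENO2, at -0.98 with empty vector, was past 2-fold at -1.15 with VGF. The paralog shares were not all as with empty vector. SLC2A3 made up 44.1 ± 0.443% of its pair in H1299 with VGF and 49.6 ± 2.00% with empty vector. EPAS1 made up 33.2 ± 1.35% of its pair in A549 with VGF and 29.3 ± 1.65% with empty vector. Neither of these shares had overlapping libraries. The shares of HK2 and LDHB were close to those with empty vector. HK2 made up 44.6 ± 1.52% of its pair in H1299 with VGF and 1.02 ± 0.443% in A549 with VGF, and LDHB made up 80.1 ± 1.13% in H1299 with VGF and 34.4 ± 0.262% in A549 with VGF. VEGFA was not called with VGF, at 0.16 ± 0.072 and an adjusted p of 0.0518. It was called higher by DESeq2 (adjusted p = 0.045) and with upper-quartile scaling (0.29, adjusted p = 0.00179). On FPKM values with a pseudocount of 1 it was also called higher (0.56, adjusted p = 5.21e-06).

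The promoters of the members were searched for the core of the hypoxia response element, the letters that HIF binds. RefSeq promoter windows of 300 bases, 250 before and 50 after a start site, were given on build GRCh38.p14 for 34 of the 39 genes, in 61 windows. SLC2A3, SLC16A1, VEGFA, NDRG1 and BNIP3L had no entry. Windows are shown 5′ to 3′ on the strand of the gene, with ACGTG or its reverse complement CACGT in capitals; where both overlap, 6 letters are in capitals. Shown are 3 genes lower in H1299 and 2 higher, picked because they hold a match, with the window that holds the most matches where a gene has several.
CA9 (chr9:35673678-35673977, plus strand): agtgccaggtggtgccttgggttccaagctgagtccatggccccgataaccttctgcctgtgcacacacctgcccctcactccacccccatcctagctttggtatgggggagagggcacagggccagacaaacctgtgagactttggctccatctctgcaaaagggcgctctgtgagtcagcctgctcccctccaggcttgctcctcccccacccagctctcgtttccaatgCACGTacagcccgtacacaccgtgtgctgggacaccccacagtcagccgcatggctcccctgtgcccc
ALDOC (chr17:28576846-28577145, minus strand): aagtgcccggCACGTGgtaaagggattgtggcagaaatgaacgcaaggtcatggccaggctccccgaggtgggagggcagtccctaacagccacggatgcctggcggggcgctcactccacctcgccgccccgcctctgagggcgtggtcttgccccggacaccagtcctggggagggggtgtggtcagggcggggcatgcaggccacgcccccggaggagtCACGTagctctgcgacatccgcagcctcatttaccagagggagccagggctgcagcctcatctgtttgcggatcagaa
LDHA (chr11:18394313-18394612, plus strand): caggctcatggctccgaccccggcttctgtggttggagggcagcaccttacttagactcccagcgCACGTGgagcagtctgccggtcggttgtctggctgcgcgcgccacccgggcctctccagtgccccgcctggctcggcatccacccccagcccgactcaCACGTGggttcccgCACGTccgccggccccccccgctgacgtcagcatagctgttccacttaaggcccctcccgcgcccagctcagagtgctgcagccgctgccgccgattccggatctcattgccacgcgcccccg
HK2 (chr2:74834920-74835219, plus strand): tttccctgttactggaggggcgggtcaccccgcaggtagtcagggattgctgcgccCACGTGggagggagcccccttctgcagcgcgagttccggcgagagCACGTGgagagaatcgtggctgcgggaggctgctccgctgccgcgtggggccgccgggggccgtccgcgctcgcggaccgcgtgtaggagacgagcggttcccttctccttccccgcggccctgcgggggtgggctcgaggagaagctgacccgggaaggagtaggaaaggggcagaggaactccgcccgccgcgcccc
SLC16A3 (chr17:82228792-82229091, plus strand): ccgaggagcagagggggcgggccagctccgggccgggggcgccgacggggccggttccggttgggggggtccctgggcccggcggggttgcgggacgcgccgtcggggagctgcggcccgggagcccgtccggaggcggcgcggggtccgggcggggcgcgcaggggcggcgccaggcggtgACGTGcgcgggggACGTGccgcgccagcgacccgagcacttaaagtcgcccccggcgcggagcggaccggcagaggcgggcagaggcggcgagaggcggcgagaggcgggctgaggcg
The match in the CA9 window starts 18 bases before the start site, and CA9 was the member with 0 counts in H1299. LDHA, lower in H1299, and HK2, higher in H1299, both held several matches, so the letters were present on both sides of the comparison. CA12, EGLN3 and EPAS1, among the members furthest below A549, held no ACGTG match in their windows. A variant of the core, GCGTG on either strand, was in the windows of CA12 and EPAS1 but not in that of EGLN3.

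Over all windows of the members, 37.7% held ACGTG on either strand, against 21.4% of all 35116 windows in the table and 24.6% of the windows of genes tested here. Counted by gene, 19 of 34 members (55.9%) held it in at least 1 window, against 31.4% of tested genes. Of the members at least 2-fold lower in H1299, 9 of 17 held it (9 of 29 windows), and of the other members 10 of 17 held it (14 of 32 windows). The variant core GCGTG was in 42.6% of the members' windows and in 47.2% of the windows of tested genes. A match is a string of letters and was not tested as a binding site.

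Other genes of the pathways were read from 5 lists beyond the 39, whose counts are to be read against the 38.5% of all features called higher and 38.6% called lower in H1299 with empty vector. Of 11 tested glucose and lactate transport genes, 2 were higher and 8 lower in H1299 with empty vector, with SLC16A4 at -8.94 ± 0.164, SLC2A12 at -8.18 ± 0.566 and SLC2A6 at -2.67 ± 0.134 on the log2 scale. Of 14 further glycolytic isozymes and regulators, 4 were higher and 6 lower, and PGM2, which works on pentose and hexose phosphates, was higher by 1.58 ± 0.088. Of 19 genes of pyruvate entry and gluconeogenesis, 6 were higher and 11 lower. In this list the phosphatase PDP1, which activates pyruvate dehydrogenase, was higher by 4.30 ± 0.164, and the kinases PDK4 and PDK3, which inhibit it, were at -4.53 ± 0.213 and -2.52 ± 0.140. MPC1, a subunit of the mitochondrial pyruvate carrier, was higher by 1.94 ± 0.192.

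The remaining oxygen-sensing machinery did not share the lower levels of HIF1A and EPAS1. Of 17 tested genes, 10 were higher and 5 lower in H1299, against 38.5% and 38.6% of all features, with a median log2 fold change of 0.17. ARNT2, an alternative partner of HIF alpha, was at -3.46 ± 0.107, the coactivator EP300 at -1.25 ± 0.074 and ELOC, a subunit of the VHL ubiquitin ligase, at 1.49 ± 0.065. Of 49 other hypoxia-inducible genes, 19 were higher (38.8%) and 23 lower (46.9%), against 38.5% and 38.6% of all features, with a median of -0.12. At 2-fold or more 11 were higher (22.4%) and 17 lower (34.7%), against 21.0% and 23.6% of all features. The median of the 16 chosen here was -2.38. Within that list EFNA1 and BHLHE40 were lower in H1299, at -5.04 ± 0.179 and -4.29 ± 0.118, while BHLHE41, LOX and PLIN2 were higher, at 4.50 ± 0.359, 2.93 ± 0.589 and 2.68 ± 0.103.

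The second comparison asked whether VGF overexpression changed these genes within a line. It changed few of them measurably. In H1299 none of the 39 was called, and in A549 SLC2A3 alone was called, lower with VGF. The levels of HIF1A and of the abundant glycolytic enzymes were close with VGF and with empty vector in both lines, and the intervals below give how close. EPAS1 had a mean of 4.6 CPM with VGF and 4.7 CPM with empty vector in H1299. In A549 EPAS1 had 567.7, 511.4 and 532.4 CPM with VGF, against 448.4, 418.2 and 500.2 CPM with empty vector, without overlap. Its log2 fold change in A549 was 0.24 ± 0.129, with an interval from -0.04 to 0.52 and an adjusted p of 0.448.

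In H1299, 2 of 18228 features (0.011%) were called between VGF and empty vector by edgeR, and none of the 39 members was. At an unadjusted p under 0.05 there were 9 members, where 7.8% of all features were, and DESeq2 called 2, ADM and ANGPTL4. The libraries of the groups did not overlap for 7 members, against 12.7% of all features. ADM had 7.86, 9.46 and 8.94 CPM with VGF, against 6.71, 5.31 and 4.86 CPM with empty vector, a log2 fold change of 0.63 ± 0.116 and an adjusted p of 0.142. ANGPTL4 had 7.49, 6.60 and 8.79 CPM with VGF, against 10.5, 11.6 and 10.1 CPM with empty vector, a log2 fold change of -0.49 ± 0.097 and an adjusted p of 0.142. For DESeq2 the adjusted p was 0.000162 for ADM and 0.00148 for ANGPTL4. These secreted factors thus stood apart in every library but passed the threshold with DESeq2 only.

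SLC2A3, LDHB, HIF1A, VEGFA and BNIP3L were the other members without overlap in H1299, at log2 fold changes between -0.24 and 0.10 and adjusted p from 0.502 to 0.650. The largest estimate was that of CA12, at -2.26 ± 0.928 with an adjusted p of 0.604. It rested on the 141 counts of empty vector library 2, beside 17 and 6 counts in the other empty vector libraries and 11, 6 and 15 counts with VGF. The 95% interval of the log2 fold change lay within a change of 1.5-fold either way for 31 of the 39 genes and within 2-fold for 34. The 8 outside 1.5-fold were ALDOC, EGLN3, CA12, ADM, ANGPTL4, NDRG1 and ANKRD37, together with CA9, which had 0 counts in both groups and no interval.

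In A549, VGF was set against empty vector with 0.406% of all features called higher and 0.384% called lower. SLC2A3 was the 1 member called. It had 8.17, 9.28 and 8.38 CPM with VGF, against 14.0, 12.2 and 18.6 CPM with empty vector. Every VGF library was below every empty vector library, and empty vector library 3 was the highest. The log2 fold change was -0.79 ± 0.123, with an adjusted p of 0.0133. Its share of the summed FPKM with SLC2A1 was 3.2 ± 0.407% with VGF and 5.94 ± 1.56% with empty vector. The call was lost without A549 VGF library 3 (adjusted p = 0.0552) and when A549 was fitted alone (adjusted p = 0.0578). Without A549 VGF library 2, the library with the high endothelial markers, the log2 fold change was -0.85 with an adjusted p of 0.0238.

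Members short of a call in A549 are given by their values. The libraries did not overlap for 11 of the 39, against 18.4% of all features, 9 of them higher with VGF and 2 lower. PFKFB3 had 430.8, 389.3 and 416.7 CPM with VGF, against 351.0, 358.3 and 285.9 CPM with empty vector, a log2 fold change of 0.31 ± 0.085 and an adjusted p of 0.12. ALDOC had 21.6, 22.5 and 22.4 CPM with VGF, against 28.97, 27.9 and 28.1 CPM with empty vector, a log2 fold change of -0.35 ± 0.131 and an adjusted p of 0.25. Besides SLC2A3, DESeq2 called both of these and TPI1 at 0.11, limma voom called both, and the fit of A549 alone called ALDOC (adjusted p = 0.0392). HK2, scarce in A549, had 1.88, 4.81 and 3.25 CPM with VGF and 2.18, 2.57 and 2.05 CPM with empty vector. Its highest value was in VGF library 2, where the endothelial markers summed to 440 CPM, and their part in it was not tested. The 95% interval lay within 1.5-fold for 33 of the 39 genes and within 2-fold for 36, with SLC2A3, HK2, ALDOC, EGLN3, CA12 and ANKRD37 outside 1.5-fold.

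**Figure D4:**
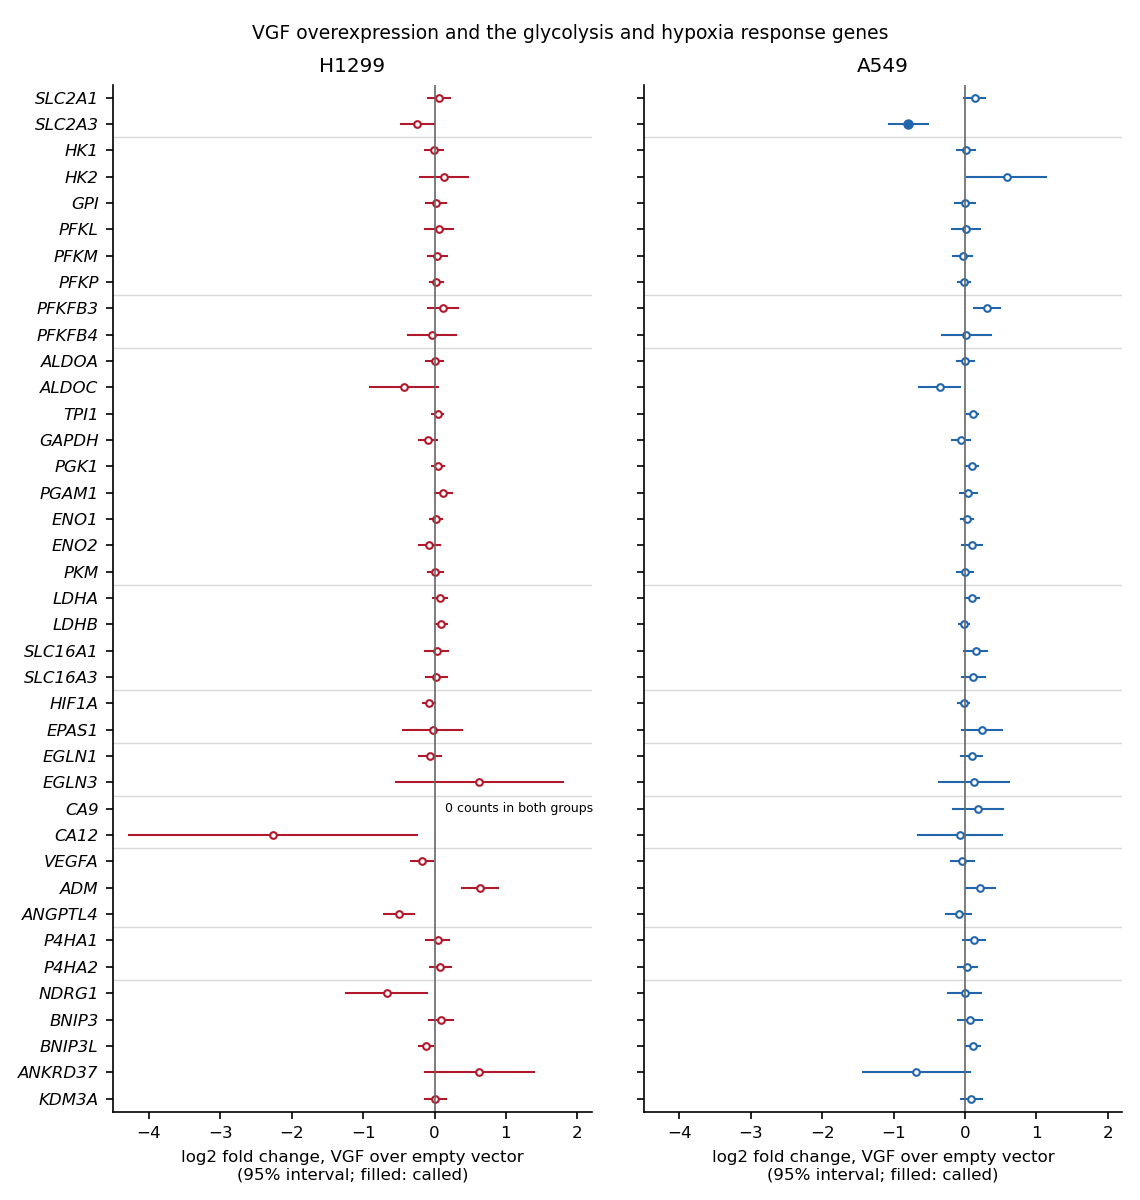
Log2 fold change of VGF over empty vector (horizontal axis) for the 39 genes in H1299 (left, red) and A549 (right, blue), with 95% intervals and a filled point for the called gene. SLC2A3 in A549, at -0.79, is the called member. CA12 in H1299 has the widest interval, and CA9 has no value in H1299.

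The difference of the VGF effects, H1299 minus A549, was tested directly in the same fit. It was called for 0.159% of all features and for none of the 39 members by edgeR, with 8 members at an unadjusted p under 0.05 (11.2% of all features), while DESeq2 called BNIP3L and SLC2A3. For SLC2A3 the difference was 0.55 ± 0.162 on the log2 scale with an adjusted p of 0.263, the log2 fold change being -0.24 ± 0.106 in H1299 and -0.79 in A549. In H1299 SLC2A3 had 58.9, 58.1 and 61.0 CPM with VGF, against 70.3, 70.3 and 69.8 CPM with empty vector. In either line every VGF library was thus below every empty vector library of that line. BNIP3L had the smallest adjusted p of the members, 0.215, with log2 fold changes of -0.12 ± 0.045 in H1299 and 0.12 ± 0.044 in A549. ANKRD37 had the largest positive difference, 1.30 ± 0.492, with an adjusted p of 0.365 and a level under 2.3 CPM in every library.

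The 5 further pathway lists gave 1 call in the VGF comparisons, where 0.406% of all features were called higher and 0.384% lower in A549. PDK4, the pyruvate dehydrogenase kinase known for its induction by fasting, had 104.9, 88.9 and 97.9 CPM in A549 with VGF, against 40.5, 44.6 and 68.2 CPM with empty vector. It was higher with VGF in every library, by 0.93 ± 0.165 on the log2 scale with an adjusted p of 0.0277. The call was lost without A549 VGF library 1 (adjusted p = 0.0606) or 3 (0.0637), without A549 empty vector library 1 (0.0965) or 2 (0.109), and on FPKM values with a pseudocount of 0.1 (0.0688). In H1299 PDK4 was at 1.78 ± 0.351 CPM with VGF and 2.2 ± 0.407 CPM with empty vector, and the difference of the effects, -1.24 ± 0.315, had an adjusted p of 0.196. Of the 49 other hypoxia-inducible genes none was called by edgeR, with 4 at an unadjusted p under 0.05 in H1299 (7.8% of all features) and 9 in A549 (13.9% of all features).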

How the data were processed

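Messenger RNA of 12 libraries was read from the submitters' tables. The authors deposited unscaled whole-number counts for each feature and, for the same features, FPKM values, which the authors scaled to length and depth. The genome build GRCh38 and the tool DESeq2 are listed, without versions, in the submitters' processing notes. Aligner, counting tool, annotation and use of strand: not given in the sources used here. A further 18 lines per table that name no feature were left out. All 19974 Ensembl IDs were found in GENCODE 29, whose coordinates are given.

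Groups came from titles and sample characteristics. Counts were tested in edgeR 4.0.16 (R 4.3.3) with TMM scaling, a filter by group that left 18228 features, and 1 fit of 4 group means (8 residual degrees of freedom). Contrasts were H1299 minus A549 with each vector, VGF minus empty vector in each line, and the difference of the VGF effects. Adjustment was by Benjamini-Hochberg over all features, with calls under 0.05. Standard errors come from the F statistic, and intervals are 95% and not adjusted. CPM values use the TMM-scaled library size. Paralog shares use FPKM and have no test. The edgeR fit was tried on simulated counts with 200 changed genes, for VGF against empty vector in A549 only. The other contrasts and the alternatives were not simulated. Alternatives were DESeq2 1.42.0, limma 3.58.1 (voom, and trend on log2 FPKM with pseudocounts 1 and 0.1), other scalings, no filter, fits by line or vector, a replicate block and leaving out each library.

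The members and lists were chosen with earlier results of these data known. Named with a value in every library were members called in a VGF contrast, up to 8 members per direction with the largest called line difference of at least 2-fold, and their paralogs. From further lists up to 3 genes per direction with at least 5 CPM were named. The other members are given by group, with examples and, for some, the values of every library. Replicates differed by more than sampling noise (chi-square over its degrees of freedom 7.82 to 21.8), so none was taken as a repeat of another. A floor is 3 counts over a group and, as the counts, covers counting error only. A further line marker is not reported here.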

Additional observations from a re-analysis of the deposited data

How the results depend on the processing

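The line results moved little: 36 to 37 members were called with empty vector and 34 to 36 with VGF under every alternative and left-out library, and 19 to 24 and 21 to 23 at 2-fold or more. DESeq2 gave no adjusted p for CA12 with empty vector.

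The VGF counts moved more. In A549, 144 features were called, 729 by DESeq2, 334 by limma voom, 63 with a replicate block and 52 (without A549 empty vector library 1) to 130 with a library left out. Of the members 1 was called, 4 by DESeq2, 3 by limma voom, 0 with the replicate block, where SLC2A3 was at -0.78 with an adjusted p of 0.0571, and 0 to 1 with a library left out. In H1299, 2 features were called, 139 by DESeq2, 1 by limma voom, 5 with no filter, 4 on FPKM with a pseudocount of 1, 4 when fitted alone, 1 with the replicate block and 1 to 4 with a library left out. Of the members 0 were called, 2 by DESeq2 and 0 with any library left out. The difference of the VGF effects was called for 29 features, 310 by DESeq2, 19 by limma voom and 18 to 36 with a library left out, and for 0 members, 2 by DESeq2. The cause was not tested. Same-numbered VGF and empty vector libraries had deviations correlated at -0.0925 to 0.0449, so the numbers did not pair the libraries.

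Genes with few reads in H1299 (CA9, CA12, EGLN3, NDRG1, ALDOC) are limited by depth there: their direction is measured, their fold less so.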
